A study of Arabidopsis thaliana with 6 samples.

Results

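The plastid ATP synthase genes are the 6 subunit genes of the chloroplast ATP synthase that lie on the plastid genome: atpA, atpF, atpH and atpI in one gene cluster and atpB and atpE in another. They were chosen by name, as probe sets that the platform annotation assigns to exactly 1 gene, and each of the 6 genes had 1 such probe set, out of 13513 probe sets of exactly 1 gene and 22810 in all. The cells were suspension cultures of Arabidopsis thaliana, grown in Murashige and Skoog medium with sucrose, naphthalene acetic acid and kinetin. One group of 3 arrays came from cultures treated with 0.1 mM isoxaben, a herbicide that blocks cellulose synthesis, and the other 3 arrays from control cultures for which no treatment is labelled. The labels name no line, genotype, culture age or length of treatment, and the study's title places it in work on the pectic matrix of the cell wall.

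The chloroplast ATP synthase sits in the thylakoid membrane and makes ATP with the proton gradient that photosynthetic electron transport builds. Protons pass between subunit a and a ring of c subunits in the membrane, the ring turns a central stalk, and the stalk drives the catalytic alpha and beta subunits of the head. The plastid genome encodes alpha, beta, epsilon, b, c and a, while the nucleus encodes gamma, delta and a further stalk subunit, so assembly draws on both genomes. Plastid genes are transcribed in clusters by a bacterial-type polymerase that the plastid itself encodes in part, and by phage-type polymerases from the nucleus. Suspension cells fed with sucrose do not depend on photosynthesis for carbon. A suspension culture has no defining cell type markers, so the label could not be checked in that way.

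Across the tested probe sets the correlation was 0.956 to 0.992 for 2 arrays of a group and 0.745 to 0.773 for an isoxaben and a control array. The titles split the arrays into 2 sets, and the first set holds replicate 1 of each group. Isoxaben replicate 1 has DCB in its source name but isoxaben in its title and treatment label, so it was kept in that group and results are also given without it. Nothing in the labels says that replicates were separate cultures, and the spread behind each p-value may therefore be technical only. Values below are the deposited linear signals of each array, and changes are isoxaben minus control on a log2(signal + 16) scale, which understates the change of dim probe sets. Because probe sets differ in how well they bind, no probe set's signal is set against another's.

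Transcripts of the plastid ATP synthase were higher in the isoxaben cultures. All 5 members bright enough to be tested, atpA, atpB, atpE, atpF and atpH, were called higher (limma, Benjamini-Hochberg adjusted p under 0.05), and on each of them the 3 isoxaben arrays lay above the 3 control arrays. Of all 13648 tested probe sets 29.4% were called higher and 27.2% lower, 56.6% together, while 32.8% were higher and 30.4% lower on every isoxaben array than on any control array. The 5 changes ran from 0.74 to 1.88 with a median of 1.15, against a median of 0.00824 over all tested probe sets. The filter did not shape this count, since the lowest control signal among the 5, 97.0, lay well above the filter signal of 22.1. In extracts of whole cultures, more RNA in each plastid, more plastids in each cell and more cells rich in plastids cannot be told apart. The part of oligo-dT priming, taken up with the ribosomal RNA probe sets further on, was not tested.

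In the head of the enzyme, atpA, which encodes the alpha subunit, had signals of 1440.7, 1421.2 and 1656.1 in isoxaben cultures, against 576.1, 354.0 and 302.1 in control cultures. The groups stood clear of each other, and control replicate 1 was the highest of the control arrays. The mean was 1506 ± 130.4 with isoxaben and 411 ± 145.5 in control (SD, n = 3 each), which is 3.67-fold, and the log2 change was 1.88 ± 0.20 (SE; limma, adjusted p = 2.89e-05). Of all tested probe sets, 97.5% had a lower log2 change. This was the highest log2 change among the 6 genes, though the ratios of atpA to atpE and to atpH, given further on, overlapped between the groups.

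The beta subunit, whose sites make the ATP, is encoded by atpB. Its signals were 2317.7, 2341.9 and 2799.7 with isoxaben and 1057.0, 1231.6 and 1227.9 in control, with no overlap and a narrow spread in both groups. The means of 2486 ± 272 with isoxaben and 1172 ± 99.8 in control (SD, n = 3 each) differ 2.12-fold, with a log2 change of 1.07 ± 0.11 (SE; limma, adjusted p = 2.06e-05). The gene next to it, atpE, encodes epsilon, a stalk subunit that restrains ATP hydrolysis. Its signals were 2113.4, 2205.2 and 2823.0 with isoxaben, against 811.6, 985.1 and 891.7 in control. Again every isoxaben array was above every control array. The change of atpE was 2.66-fold in mean signal and 1.39 ± 0.13 on the log2 scale (SE; limma, adjusted p = 1.10e-05).

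Of the membrane part, atpH encodes subunit c, the building block of the proton-driven ring. Its signals were 538.7, 282.2 and 297.2 in isoxaben cultures, against 150.2, 141.1 and 167.1 in control cultures. Isoxaben replicate 1 stood far above the other isoxaben arrays, which were themselves above all control arrays. The log2 change was 1.15 ± 0.21 (SE; limma, adjusted p = 0.00121), with means of 373 ± 144 with isoxaben and 153 ± 13.2 in control (SD, n = 3 each). Without isoxaben replicate 1 the change of atpH was 0.86 and still called (limma, adjusted p = 0.000494). The b subunit, a peripheral stalk that ties the head to the membrane, is encoded by atpF. Its signals of 186.6, 219.2 and 160.8 with isoxaben compare with 101.1, 121.8 and 97.0 in control, again with no overlap. The change of atpF was 1.77-fold and 0.74 ± 0.14 on the log2 scale (SE; limma, adjusted p = 0.00131).

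The remaining member, atpI, encodes subunit a, which forms the proton path beside the ring. Its signals were 33.7, 13.3 and 19.4 with isoxaben and 15.2, 5.8 and 6.1 in control, so only isoxaben replicate 1 passed the filter signal of 22.1 and the groups overlapped. The probe set fell below the filter and was not tested with the others. In a fit over all 22746 probe sets with no filter its log2 change was 0.59 ± 0.23 (SE) and did not pass (limma, adjusted p = 0.0933). With the replicate number as a block that fit gave the same change with an adjusted p of 0.0312 (limma). Such dim signals depend on the pseudocount, and atpI changed by 1.23 with a pseudocount of 1 and by 0.23 with one of 64.

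**Figure D1:**
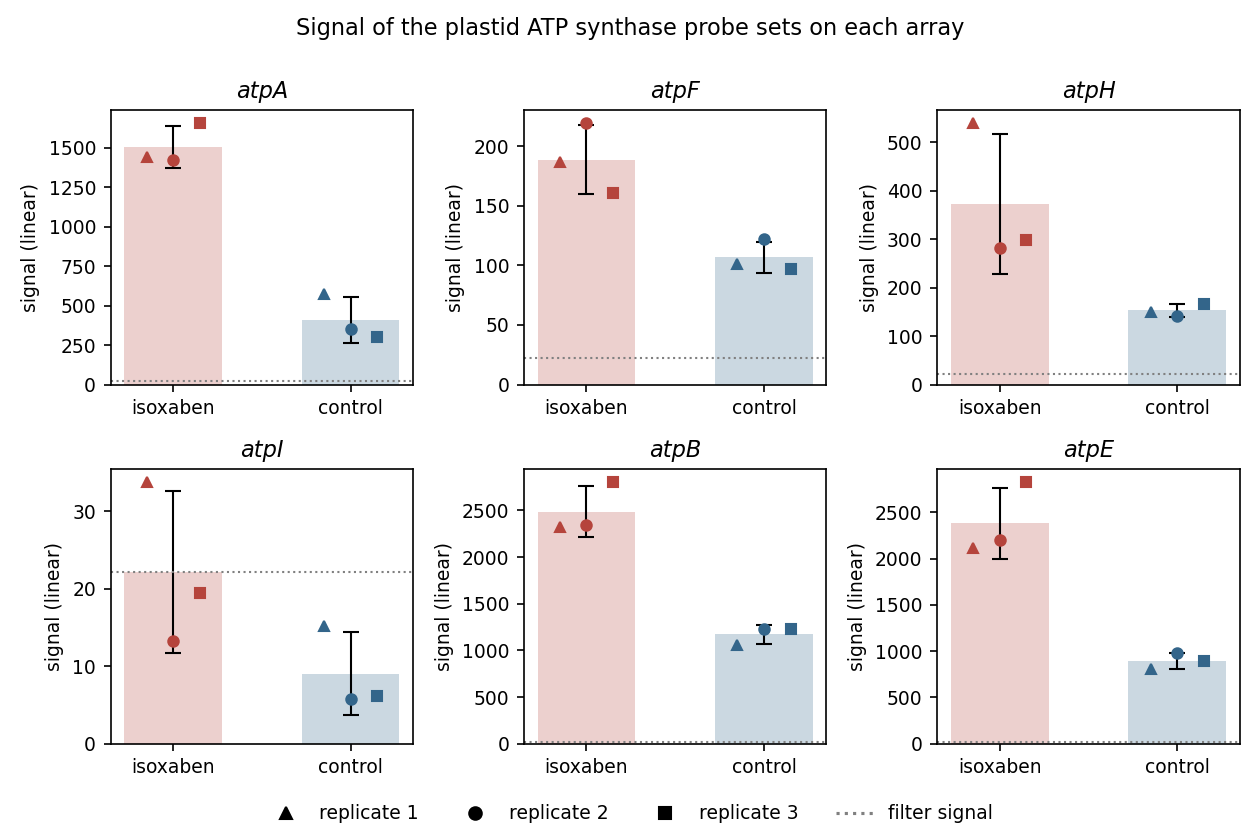
Linear signal (y axis, from 0, a scale of its own in each panel) of the 6 plastid ATP synthase probe sets on the isoxaben and control arrays. Bars are means with SD (n = 3), symbols are single arrays by replicate number and the dotted line is the filter signal of 22.1; the groups overlap only for atpI, and isoxaben replicate 1 is high for atpH.

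Whether the members moved by unequal amounts was examined through the ratio of 2 members on the same array, as a difference of log2(signal + 16) values. Of the 15 pairs, 6 had ratios that did not overlap between the groups, and 4 of these were among the 10 pairs of the 5 tested members. Over all pairs of tested probe sets the share without overlap was 66.7%, so the members' ratios parted the groups no more often than those of other probe sets. One such pair was atpB over atpE, neighbours in 1 cluster. Their log2 ratio was 0.13, 0.09 and -0.01 on the isoxaben arrays and 0.38, 0.32 and 0.46 on the control arrays. The ratio was thus lower on every isoxaben array, with a difference of -0.31 ± 0.06 (SE of the difference). For atpA over atpF the difference was 1.15 ± 0.35, and for atpA over atpB 0.81 ± 0.34 (SE of the difference).

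With 3 arrays in a group, an exact two-sided permutation test over arrays cannot give less than p = 0.1, and these pairs reached that value. After Benjamini-Hochberg adjustment over the 15 pairs the lowest adjusted p of the exact permutation test was 0.25, so no pair passed. The ratios of atpA to atpE (difference 0.50 ± 0.34) and of atpA to atpH (0.74 ± 0.44) overlapped between the groups, so the order of these 3 members is not settled. For atpH against atpB the difference was 0.07 ± 0.35, an interval wide enough to hold sizeable differences in either direction. Of the 15 pairs, 10 did not overlap without isoxaben replicate 1, 4 with a pseudocount of 1 and 9 with one of 64. Fewer arrays make overlap rarer, and no share over all pairs of tested probe sets is at hand for these settings. These counts therefore say nothing about the members in particular.

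Gene order on the plastid genome places the members beside other plastid genes. Past atpA, atpF, atpH and atpI in 1 cluster come rps2, a ribosomal protein gene, and rpoC2, an RNA polymerase subunit gene. On rps2 the signals were 1194.5, 945.1 and 1003.8 with isoxaben, against 299.3, 257.0 and 188.7 in control. On rpoC2 they were 440.3, 286.4 and 415.8 with isoxaben, against 74.9, 47.9 and 51.8 in control. Both were called higher, by 2.02 ± 0.16 and 2.41 ± 0.19 on the log2 scale (SE; limma, adjusted p = 4.56e-06 and 3.69e-06). Along this stretch the log2 changes were 1.88 at atpA, 0.74 at atpF, 1.15 at atpH and 0.59 at the dim atpI. They were 2.02 at rps2 and 2.41 at rpoC2. This order depends on the pseudocount, and with one of 1 the changes were 0.815 at atpF, 1.22 at atpH and 1.23 at atpI. No pair of members passed the ratio test above, and ratios to rps2 and rpoC2 were not tested.

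The other cluster lies between rbcL, the gene of the large subunit of Rubisco, and ndhC, of the NADH dehydrogenase-like complex. Next to atpB, rbcL had signals of 102.7, 98.9 and 129.5 with isoxaben and 99.9, 104.0 and 97.8 in control. Its groups overlapped, and its change of 0.11 ± 0.13 did not pass (SE; limma, adjusted p = 0.490), while atpB changed by 1.07 beside it. On the atpE side, ndhC had signals of 451.5, 262.0 and 249.1 with isoxaben and 180.2, 96.2 and 86.5 in control, and was called higher by 1.31 ± 0.27 (SE; limma, adjusted p = 0.00235). In both groups its replicate 1 was the highest array.

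**Figure D2:**
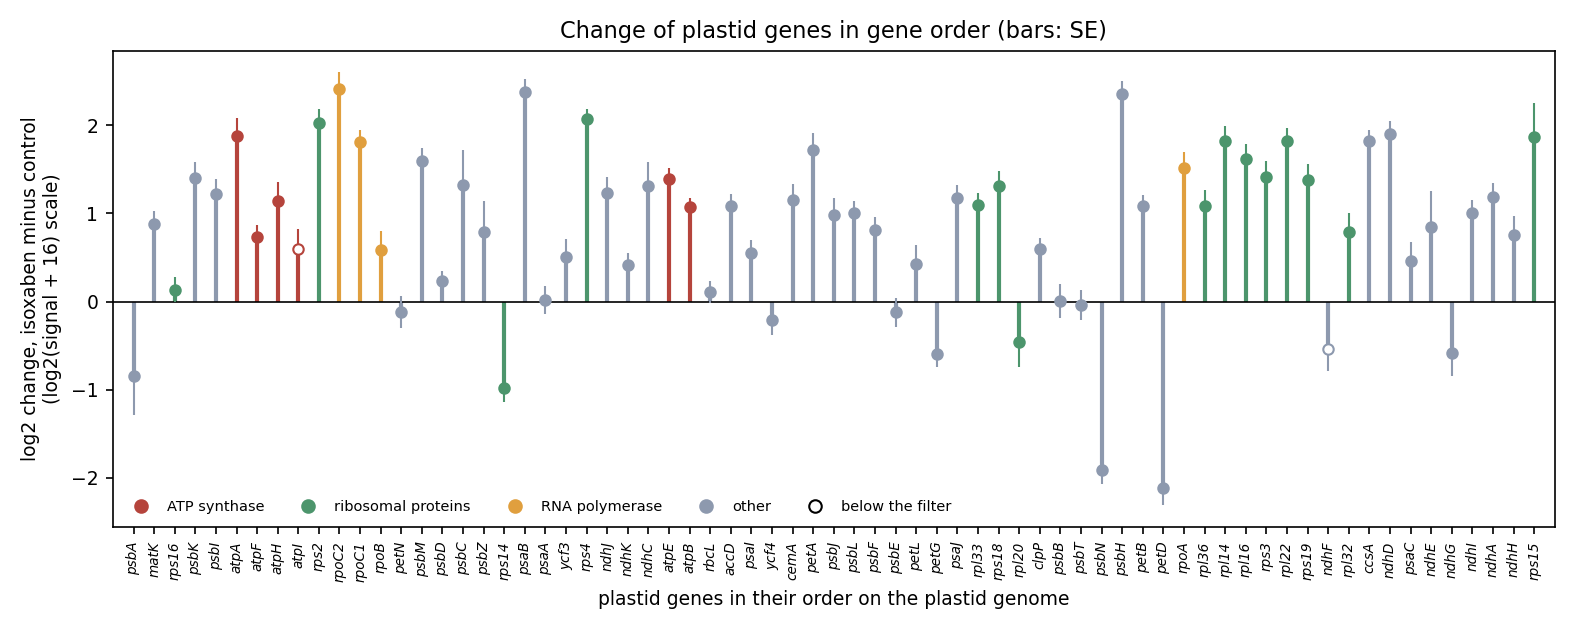
Log2 change of isoxaben minus control (y axis, log2(signal + 16) scale, bars SE) for the 69 plastid genes with a probe set of exactly 1 gene, in gene order along the x axis (equal steps, not to scale). The ATP synthase genes sit between 0.59 and 1.88, rpoC2 is highest at 2.41 and petD lowest at -2.11; open circles are probe sets below the filter.

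Most other plastid genes were higher as well. Of 63 other plastid genes with such a probe set, 62 were tested, 41 were called higher and 4 lower, with a median change of 1.00 and a range of -2.11 to 2.41. The number called lower was 7 with the replicate number as a block and 7 without isoxaben replicate 1. By complex, the medians were 1.67 for the 4 RNA polymerase genes, 1.38 for 15 ribosomal protein genes, 1.00 for 9 genes of the NADH dehydrogenase-like complex, 0.81 for 15 photosystem II genes, 0.56 for 5 photosystem I genes and 0.15 for 6 cytochrome b6f genes. With all 5 tested members called higher and none lower, the ATP synthase genes had a median of 1.15, between those of the ribosomal protein genes and of the NADH dehydrogenase-like complex. No test separates the complexes from one another, and the whole of this comparison shares the same 6 arrays.

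On the nuclear side, 2 of the 4 listed subunit genes had a probe set of exactly 1 gene. ATPC1, for the gamma subunit that forms the turning stalk, had signals of 272.3, 248.1 and 269.8 with isoxaben, against 66.6, 36.9 and 39.6 in control. Its groups lay far apart, and it was called higher by 2.16 ± 0.17 on the log2 scale (SE; limma, adjusted p = 3.93e-06), or 5.52-fold in mean signal. ATPC2, a second gamma gene, had 82.5, 72.4 and 87.2 with isoxaben and 69.2, 61.7 and 66.6 in control. Although no isoxaben array fell below a control array, the change of 0.24 ± 0.12 did not pass (SE; limma, adjusted p = 0.116). The genes of delta and of the nuclear stalk subunit are unnamed here.

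A list of 6 loci for assembly and expression factors of the enzyme came from background knowledge, and no table used here names them, so its membership could not be checked. Of these, 5 had a probe set, 3 were tested, 2 were called higher and none lower, with a median change of 0.47. For the mitochondrial ATP synthase, which makes ATP by respiration, a list of 18 entries was drawn up in the same way, and 6 nuclear loci had a probe set. Of these 6, 5 were called higher and none lower, with a median of 0.61. Both lists share the background of 29.4% called higher, and none of the 7 plastid sigma factor and phage-type polymerase genes on a further list had a probe set of exactly 1 gene. Of 21 nuclear genes for the Rubisco small subunit and light-harvesting proteins, taken as marks of green plastids, 2 had a probe set. Their summed signal was 203 to 214 on the isoxaben arrays, against 37.0 to 56.3 on the control arrays. LHCB4.1, a light-harvesting protein of photosystem II, was called higher by 1.82 ± 0.14 (SE; limma, adjusted p = 4.24e-06), and LHCB4.2 stayed between 1.0 and 2.1 on all arrays. The part of greening in the members' changes was not tested.

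**Figure D3:**
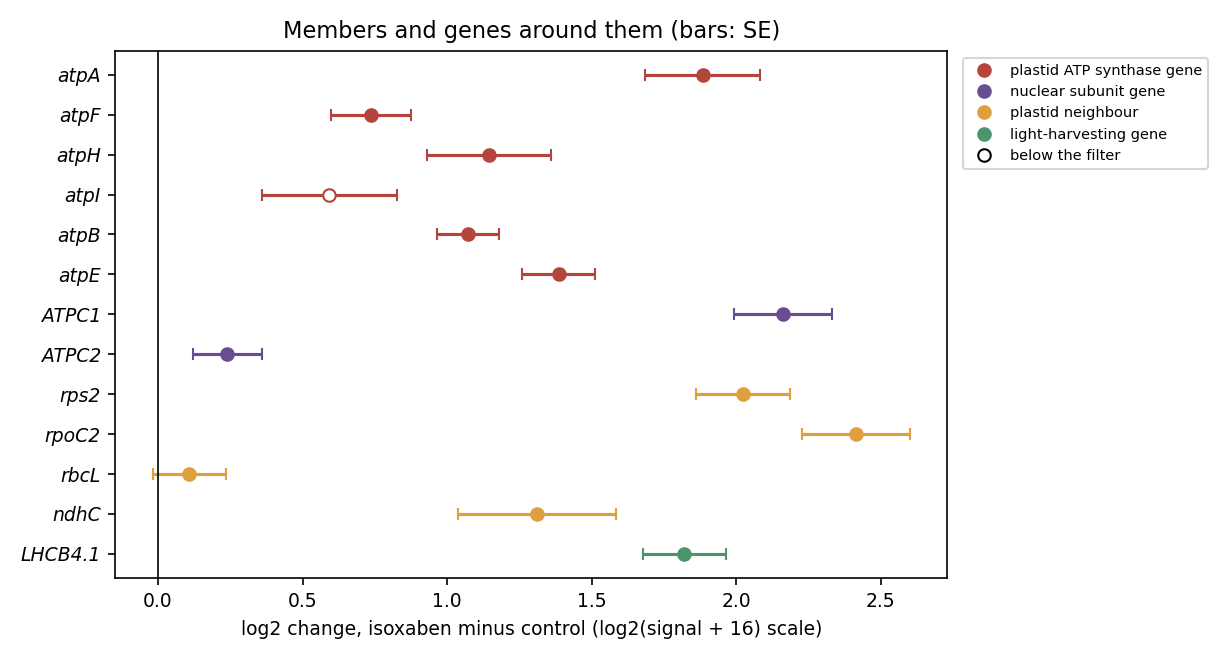
Log2 change of isoxaben minus control (x axis, log2(signal + 16) scale, bars SE, 3 arrays a group) for the 6 plastid ATP synthase genes, the nuclear gamma genes, 4 plastid neighbours and LHCB4.1. ATPC1 at 2.16 and rpoC2 at 2.41 lie above all members, while rbcL at 0.11 and ATPC2 at 0.24 lie below them.

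Within the first title set, which holds 1 array of each group, the change was 1.30 for atpA, 1.12 for atpB, 1.36 for atpE, 1.74 for atpH, 0.79 for atpF and 0.67 for atpI. Within the second set, with 2 arrays a group, it was 2.18 for atpA, 1.05 for atpB, 1.40 for atpE, 0.85 for atpH, 0.71 for atpF and 0.55 for atpI. Every member was thus higher with isoxaben in both sets. Within the second set alone the 5 tested members were all called higher, where 35.3% of probe sets were (limma), and the highest of their adjusted p was 0.00153, for atpF. Without isoxaben replicate 1, the array with the code DCB, the changes were 1.91 for atpA, 1.12 for atpB, 1.47 for atpE, 0.74 for atpF and 0.86 for atpH, all called higher.

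The sets nevertheless gave different sizes for atpA and atpH. A limma fit with a title set by isoxaben interaction, added after the data had been seen, gave a change of atpA that was lower in the first set by -0.88 ± 0.18 (SE; adjusted p = 0.0352). For atpH the change was higher in the first set by 0.89 ± 0.16 (SE; limma, adjusted p = 0.0260). The other tested members differed by -0.03 to 0.08 and did not pass (limma, lowest adjusted p = 0.853). Of all tested probe sets 4.44% passed this interaction, as did 2 of the 62 other plastid genes. For atpA, control replicate 1 lay above the other control arrays, while isoxaben replicate 1 lay between the other isoxaben arrays. For atpH, isoxaben replicate 1 lay above the other isoxaben arrays. Each first-set value rests on 1 array a group, whose spread is taken from the other arrays. The isoxaben array of the first set is the one with DCB in its source name. Title set and that label therefore cannot be told apart. Both calls were lost in the fit with no filter (limma, adjusted p = 0.151 for atpA and 0.138 for atpH).

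**Figure D4:**
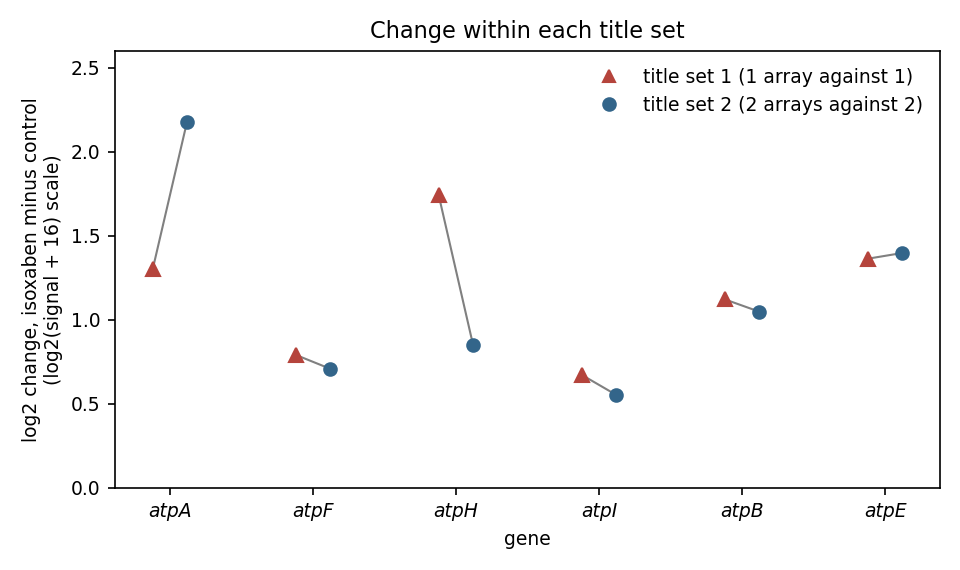
Log2 change of isoxaben minus control (y axis, log2(signal + 16) scale, from 0) of each member within title set 1 (triangles, 1 array against 1) and title set 2 (circles, 2 against 2). The triangle and circle of a gene lie close together except for atpA, at 1.30 in the first and 2.18 in the second, and atpH, at 1.74 and 0.85.

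Among 1046 tested probe sets of named genes, those with the profile most like a member over the 6 arrays were found by the root-mean-square distance of log2 values centred on the control mean, as a description. The nearest to atpB was petB, the plastid gene of cytochrome b6, at 0.05, with scpl48, a serine carboxypeptidase-like gene, close behind at 0.05. The nearest to atpH were the plastid genes ndhJ (0.18) and ndhA (0.19). In mean signal ndhJ differed 3.14-fold and ndhA 2.42-fold, against 2.44-fold for atpH, so the likeness of ndhJ leans on the log2(signal + 16) scale. The other nearest genes were nuclear. They were SAG29, a sugar transporter of the SWEET family (0.13), and CLE44, which encodes a signalling peptide (0.14), for atpA. All control signals of SAG29, 12.8, 5.0 and 3.3, lay below the filter signal, and the mean signals of SAG29 and CLE44 differed 9.79-fold and 5.16-fold, against 3.67-fold for atpA, so this likeness holds only on the log2(signal + 16) scale. For atpF they were bZIP44, a transcription factor (0.11), and CFM3B, of the CRM family (0.11). For atpE they were TSO1 (0.13) and TBL39 (0.14). Between members the smallest distance was 0.23, from atpE to atpB. For each tested member at least 2 other genes were nearer than any other member. Those genes were picked from 1046 probe sets, far more than the other tested members. Their being nearer therefore says nothing of how alike the members were.

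The RNA was labelled from an oligo-dT primer, and plastid transcripts mostly lack a long poly(A) tail, so the signals describe the plastid RNA that such priming reached. Ribosomal RNA, which also lacks such a tail, has control probe sets on the array. The 25S ribosomal RNA probe set had signals of 27.3, 17.6 and 49.3 with isoxaben, against 4.9, 6.7 and 7.2 in control, and the 5S ribosomal RNA probe set 33.0, 34.9 and 48.8 with isoxaben, against 12.5, 5.9 and 8.6 in control. Both were higher on every isoxaben array, with p = 0.1 in the exact two-sided permutation test, its lower limit here. All of their control signals lay below the filter signal of 22.1. The ratio of 3′ to 5′ probe sets was 1.08, 1.08 and 1.17 with isoxaben and 1.06, 0.99 and 0.93 in control for GAPDH, and 2.04, 1.62 and 2.05 with isoxaben and 2.12, 1.52 and 1.72 in control for actin. For ubiquitin it was 1.78, 1.46 and 1.87 with isoxaben and 1.55, 1.37 and 1.19 in control. The groups did not overlap for this GAPDH pair and did for actin and ubiquitin. Another GAPDH pair had 3′ signals of 1387.6, 1082.4 and 1281.4 with isoxaben and 1254.9, 865.8 and 723.2 in control. Its 5′ signals were 983.4, 1130.0 and 823.2 with isoxaben and 594.7, 830.5 and 801.2 in control. The ratio of that pair overlapped between the groups and was highest on control replicate 1. The part of priming and RNA quality in the members' changes was not tested.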

How the data were processed

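RNA from suspension cultures was measured on 6 Affymetrix ATH1 arrays, with biotin-labelled cRNA made from oligo-dT-primed total RNA per the labels' protocols. The deposited table holds 1 linear signal for each of 22810 probe sets and each array, without detection calls. The deposited signals had been scaled, since each array had a mean of 100.006 to 100.008 once 2% was trimmed from either end. No source used here gives the algorithm, and precision is limited by the number of arrays. Titles gave the groups.

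The 64 control probe sets were left out, signals were taken as log2(signal + 16), and probe sets under the 40th percentile of the mean, a signal of 22.1, were dropped, leaving 13648. Isoxaben was tested against control over the whole table with limma 3.58.1 in R 4.3.3. The fit used eBayes with an intensity trend and no covariate, and p-values were two-sided with Benjamini-Hochberg adjustment at a threshold of 0.05. It was also run on simulated data in which few probe sets changed, unlike here, so that run does not vouch for these calls. Ratios used exact permutation tests in scipy 1.17.1. Same-numbered arrays deviated together from their group means (r = 0.207, 0.110 and 0.128 over probe sets). Arrays of the second title set with different numbers gave like values (0.118 and 0.101). Deviations from a group mean cancel out within the group, so the second-set values are tied to that of replicate 1. They restate a difference between the title sets and are no separate sign of pairing by number, which the labels do not state. The members, lists and tests were chosen with earlier results of these data known. Named genes were the members, their fixed lists and, for each tested member, the 2 named genes with the nearest profile. Names came from the platform annotation, updated with RefSeq TAIR10.1 for 13436 of 13513 probe sets of exactly 1 gene. Alternatives covered normalization, pseudocount, filter, prior variance, array weights, blocks, title sets and each array left out.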

Additional observations from a re-analysis of the deposited data

Results flagged for a closer look

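The change of atpA with isoxaben differed between the title sets, with a first-set change lower by -0.88 on the log2 scale (limma interaction term, adjusted p = 0.0352). The change of atpH differed in the opposite sense, higher by 0.89 in the first set (limma, adjusted p = 0.0260). Both members were higher with isoxaben in both sets. The interaction fit was added after the data had been seen, and its first set holds 1 array of each group. Both calls were lost in the fit with no filter. The only isoxaben array of the first set has DCB in its source name, so title set and that label cannot be told apart. For atpA that array, at 1440.7, lay between the other isoxaben arrays, while control replicate 1, at 576.1, was the highest control array. For atpH the DCB array, at 538.7, lay above the other isoxaben arrays. The part of the label was not tested. Groups of 3 arrays were too small for a check of single outlying samples.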

How the results depend on the processing

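The 5 tested members were called higher under all 17 alternatives, with limma adjusted p of at most 0.00858, for atpF. Their changes ran from 1.70 to 2.18 for atpA, 0.92 to 1.12 for atpB, 1.25 to 1.47 for atpE, 0.85 to 1.31 for atpH and 0.56 to 0.87 for atpF. The dim atpI passed limma with array weights (0.61, adjusted p = 0.0131), the replicate block (0.59, 0.0312), the title set block (0.59, 0.0139) and in title set 2 alone (0.55, 0.0290), and ranged from 0.38 to 0.77 with 1 array left out. It passed without control replicate 1 (0.76, limma adjusted p = 0.0385), and its highest adjusted p over the 15 alternatives was 0.243. Other plastid genes called lower numbered 8 with array weights and in title set 2 alone, 7 with either block, and 4 to 7 with 1 array left out, against 4. With no filter the interaction gave -0.88 for atpA and 0.89 for atpH, no longer called, and 0 of 22746 probe sets passed in limma, though 4672 had an unadjusted p under 0.05. Member pairs without overlap, 6 of 15, numbered 4 with a pseudocount of 1 and 9 with one of 64. They numbered 11 in title set 2 alone and 6 to 10 with 1 array left out, where fewer arrays make overlap rarer. The share over all pairs of tested probe sets is given for the main setting only. The replicate block changed no other call of a member. Of 316 values of listed genes, 306 kept their side of the threshold, 5 rose above it and 5 fell below it. The 5 that rose were all of 1 assembly factor locus below the filter. It was not tested with the others and was judged by the fit with no filter (limma, adjusted p = 0.0202). The 5 that fell were all of 1 mitochondrial ATP synthase locus. The sign turned in 4 of the 306, all for 1 assembly factor locus near 0 that was never called. The difference of the 25S ribosomal RNA probe set stayed positive in all 11 alternatives.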
